A study of Mus musculus with 20 samples.

Results

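The genes described here are 10 that build telomerase and the protein cap of chromosome ends in mice: Tert, Dkc1, Terf1, Terf2, Terf2ip, Tinf2, Acd, Pot1a, Pot1b and Rtel1. They were chosen by gene symbol, and all 10 were found among the 20377 symbols of a table of counted reads for 26005 RefSeq transcripts. The study sequenced polyadenylated RNA from the bone marrow of Fancd2-/- and wild-type mice to follow the response to oxymetholone, an anabolic androgen given in the inherited marrow failure Fanconi anaemia. All mice were 129S4 males, 4 months old, and had eaten chow with oxymetholone (300 mg per kg of diet) or placebo for 3 months from weaning. KSL cells (cKit+ Sca1+ Lin-, the fraction that holds stem and early progenitor cells) were sorted from pools of 5 mice, with 3 libraries for each of 4 groups: Fancd2-/- on oxymetholone, Fancd2-/- on placebo, wild-type on oxymetholone and wild-type on placebo. Erythroblasts (Ter119+ cells with high CD71 and high forward scatter) were sorted from wild-type mice, with 3 libraries on oxymetholone and 3 on placebo, each from 1 mouse. Whole bone marrow was sequenced as 1 library of Fancd2-/- and 1 of wild-type marrow, both on placebo and each combining 5 mice. Fancd2-/- erythroblasts were not analysed here, so genotype and cell type were never compared in the same samples.

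Telomerase is the enzyme that adds repeats to chromosome ends. Its catalytic subunit is the reverse transcriptase Tert, and dyskerin, made from Dkc1, holds and stabilises its RNA. Shelterin covers the repeats: Terf1 (TRF1) and Terf2 (TRF2) bind the double strand, Tinf2 (TIN2) bridges them, Terf2ip (RAP1) rides on TRF2, and Acd (TPP1) joins TIN2 to the POT1 proteins on the single-stranded end. Mice have a pair of POT1 genes, Pot1a and Pot1b, where humans have a single POT1, and Rtel1 is a helicase that unwinds the telomere loop during replication. In blood formation, telomerase activity is known to be higher in progenitors than in mature cells, and inherited faults in TERT, DKC1, TINF2, ACD or RTEL1 cause marrow failure in humans. In human blood cells androgens have been reported to raise TERT after conversion to oestradiol by aromatase. Whether that route applies to oxymetholone was not tested here.

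The promoters of 4 of the genes carry the main findings below: Tert, which was not detected in erythroblasts, Terf1 and Pot1b, which were far higher there, and Pot1a, the partner of Pot1b. Each runs 5′ to 3′ from 250 bases before to 50 bases after the transcript start in RefSeq, build mm9: Tert at chr13:73764199-73764498 on the plus strand, Terf1 at chr1:15795489-15795788 on the plus strand, Pot1a at chr6:25759177-25759476 on the minus strand and Pot1b at chr17:55851877-55852176 on the minus strand. Capitals mark matches on either strand to the letters searched. These were CACGTG (the E-box bound by MYC and MAX), GGGCGG (the GC box bound by SP1), AGGTCA (the core letters of oestrogen receptor sites) and the palindromic oestrogen response element with its spacer of any bases.
Tert promoter: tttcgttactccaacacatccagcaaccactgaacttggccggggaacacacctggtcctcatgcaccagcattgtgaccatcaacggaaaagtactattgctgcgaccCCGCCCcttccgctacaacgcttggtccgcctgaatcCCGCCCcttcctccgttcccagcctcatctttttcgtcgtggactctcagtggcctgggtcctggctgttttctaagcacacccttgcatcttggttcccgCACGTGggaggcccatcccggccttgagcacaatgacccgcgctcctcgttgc
Terf1 promoter: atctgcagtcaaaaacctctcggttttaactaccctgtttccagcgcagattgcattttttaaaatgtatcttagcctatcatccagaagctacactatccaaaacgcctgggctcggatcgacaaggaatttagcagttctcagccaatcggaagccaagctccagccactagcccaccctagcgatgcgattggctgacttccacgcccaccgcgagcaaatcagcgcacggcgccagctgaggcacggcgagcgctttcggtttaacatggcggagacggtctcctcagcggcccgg
Pot1a promoter: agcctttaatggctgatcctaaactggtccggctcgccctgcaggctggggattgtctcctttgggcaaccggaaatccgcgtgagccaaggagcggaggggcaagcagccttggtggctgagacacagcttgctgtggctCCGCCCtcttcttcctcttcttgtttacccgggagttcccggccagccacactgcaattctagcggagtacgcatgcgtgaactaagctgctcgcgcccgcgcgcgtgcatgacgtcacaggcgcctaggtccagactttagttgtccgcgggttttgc
Pot1b promoter: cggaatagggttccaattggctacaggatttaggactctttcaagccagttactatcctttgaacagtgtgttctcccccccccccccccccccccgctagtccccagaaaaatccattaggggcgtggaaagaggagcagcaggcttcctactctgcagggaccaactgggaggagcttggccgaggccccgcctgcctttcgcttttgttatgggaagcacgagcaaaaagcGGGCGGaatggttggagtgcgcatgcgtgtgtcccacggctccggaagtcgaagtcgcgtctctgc

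The 10 genes lie on chromosomes 1, 2, 6, 8, 13, 14, 17 and X (mm9, whole transcript). For telomerase these were Tert (NM_009354, chr13:73764449-73786489, plus strand, 16 exons) and Dkc1 (NM_001030307, chrX:72341193-72355115, plus). The double-strand binders were Terf1 (NM_009352, chr1:15795739-15833510, plus) and Terf2 (NM_009353, chr8:109593302-109620445, minus). With Terf2 on chromosome 8 lay Terf2ip (NM_020584, chr8:114535259-114544428, plus) and Acd (NM_001012638, chr8:108222059-108224995, minus). The others were Tinf2 (NM_145705, chr14:56297918-56300654, minus), Pot1a (NM_133931, chr6:25693735-25759226, minus), Pot1b (NM_028370, chr17:55791323-55851926, minus) and Rtel1 (NM_001001882, chr2:181054429-181091321, plus). Rtel1 had 5 rows of transcripts in the table and Terf2 had 2, and the row with the most reads was used.

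Of the 20325 promoters of this length, 8.1% held CACGTG, 49.4% GGGCGG, 13.4% AGGTCA and 0.1% the palindromic oestrogen element. Tert held the E-box, with its first base 3 bases before the start, and GC boxes 141 and 104 bases before it. Acd was the other gene of the 10 with an E-box, and it also held AGGTCA. Terf1 held none of these letters, and Pot1a and Pot1b held a GC box each. The palindromic element was in the window of none of the 10. A match is a string of letters in this window and not a bound site.

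Counted reads per library numbered 17.2 M to 20.8 M in erythroblasts, 10.8 M to 121 M in KSL cells, and 107 M (Fancd2-/-) and 100 M (wild-type) in marrow. Levels are counts-per-million (CPM) scaled by TMM over all 20 libraries. Markers fitted the labels: 8 erythroblast genes summed to 104400 to 125600 CPM in erythroblasts and 37.8 to 195.4 CPM in KSL cells. The 8 KSL genes summed to 1.08 to 3.17 CPM in erythroblasts, where Meis1 was at 0 in all 6 libraries, and to 1993 to 3001 CPM in KSL cells. Fancd2 was at 4.65 to 6.15 CPM in Fancd2-/- KSL cells and 12.1 to 16.5 CPM in wild-type KSL cells. Fancd2-/- placebo replicate 3 stood apart from the other 11 KSL libraries, with a first principal component score of 61.1 against -16.6 to 2.23, the lowest level of long transcripts, and 64.5 CPM summed over 6 stromal genes against 13.5 to 24.2 CPM. Results with and without it are given for Tert and Tinf2 (oxymetholone and genotype), Dkc1 and Terf1 (genotype) and Terf2 (oxymetholone). The design text pairs each oxymetholone KSL library with the placebo library sorted at the same flow cytometer setting, and these pairs are numbered 1 to 3 in each genotype.

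Tert was expressed at a low, even level in KSL cells. It lay between 2.55 and 4.23 CPM in the 12 KSL libraries, from 53 to 586 counts each, with a coefficient of variation of 14.8%. Per kilobase of transcript, wild-type placebo KSL cells had 48.7 ± 4.86 CPM per kb of Dkc1 (SD, n = 3), 42.0 ± 6.07 of Acd, 23.6 ± 3.74 of Terf2, 14.3 ± 0.955 of Pot1a, 12.5 ± 1.18 of Tinf2, 10.9 ± 0.936 of Terf2ip, 8.55 ± 1.13 of Rtel1, 4.94 ± 0.854 of Terf1, 1.06 ± 0.0828 of Tert and 0.615 ± 0.0757 of Pot1b. The SDs of Dkc1 and Acd met, as did those of Pot1a with Tinf2 and of Tinf2 with Terf2ip. Within every one of these libraries, though, Dkc1 lay above Acd, Pot1a above Tinf2 and Tinf2 above Terf2ip. The telomerase reverse transcriptase and the second POT1 protein were thus the rarest of the 10 messages in these cells, and the messages of dyskerin and of Acd lay highest.

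**Figure D1:**
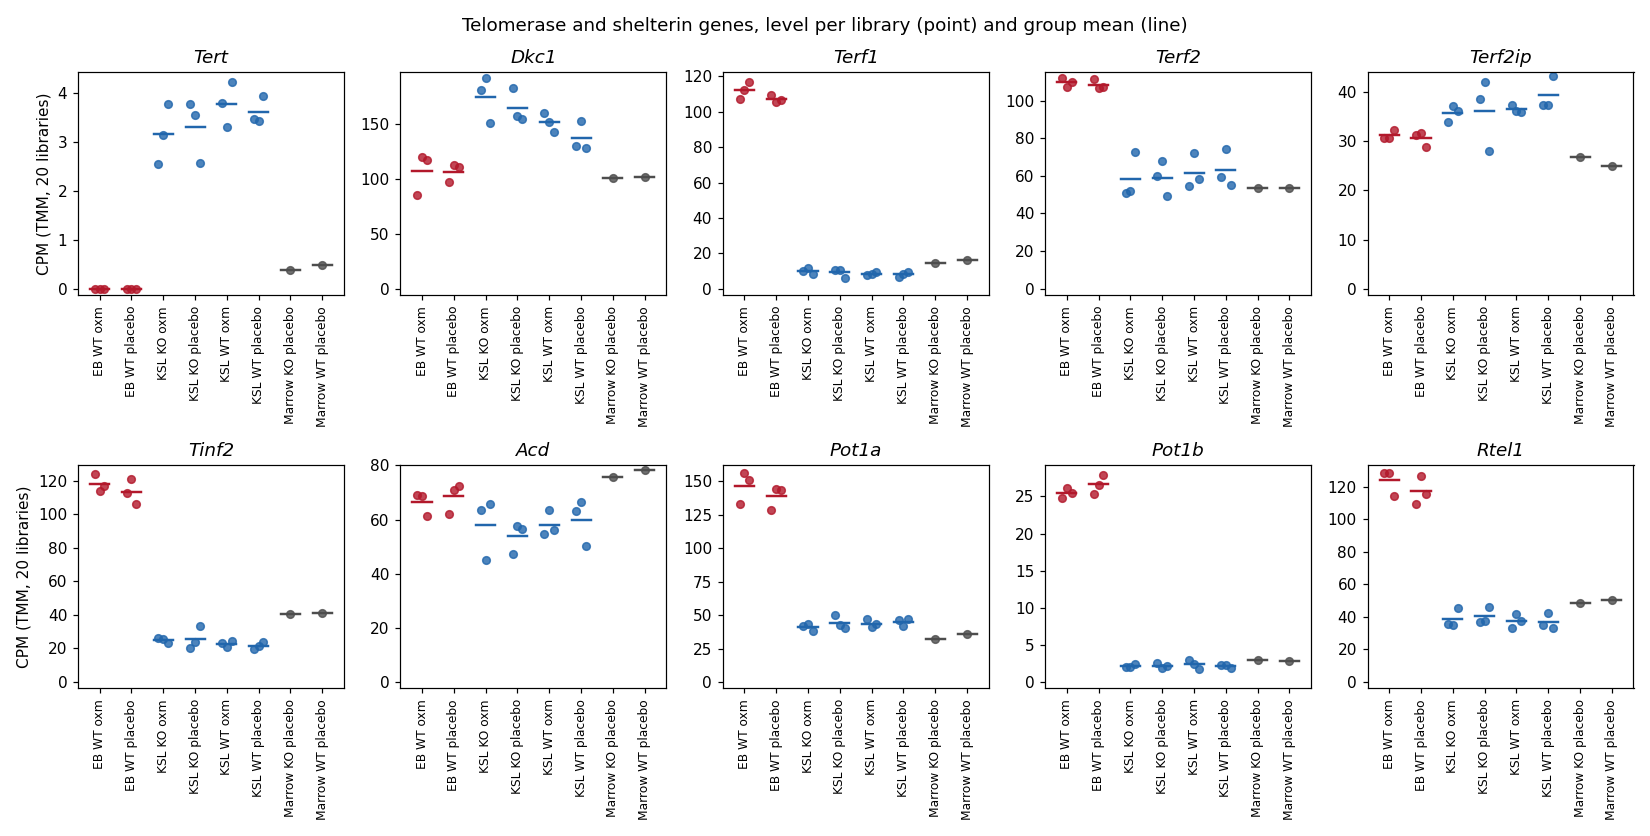
Level of each gene in every library, in CPM (TMM-scaled) on a linear axis from 0; points are libraries, lines are group means, and the groups run from erythroblasts (EB, red) over KSL cells (blue) to whole marrow (grey), with Fancd2-/- (KO) left of wild-type (WT) and oxymetholone (oxm) left of placebo. Tert is at 0 in all 6 erythroblast libraries and between 2.55 and 4.23 CPM in KSL cells, while Terf1, Tinf2, Pot1a, Pot1b and Rtel1 are highest in erythroblasts.

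Whether oxymetholone changed these genes in stem and progenitor cells was asked within the pairs. Tert was at 2.55, 3.15 and 3.79 CPM in Fancd2-/- KSL cells on oxymetholone (pairs 1 to 3), against 3.79, 3.56 and 2.58 CPM on placebo. The groups overlapped, and the pairs moved in opposite directions. The log2 change was -0.58 in pair 1 (95% interval for counting error -1.09 to -0.08), -0.18 in pair 2 (-0.54 to 0.18) and 0.55 in pair 3 (0.26 to 0.86). Pair 3 is the one whose placebo library stood apart, and the part of that library's quality in its rise was not tested. Over the pairs Tert changed by -0.05 ± 0.24 log2 units (SE; edgeR adjusted p = 0.960), with a 95% interval from 0.68-fold to 1.38-fold. Without pair 3 the estimate was -0.33 ± 0.24 (edgeR adjusted p = 1), and without pair 1 it was 0.19 (edgeR adjusted p = 0.757).

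In wild-type KSL cells Tert was at 3.81, 3.32 and 4.23 CPM on oxymetholone, against 3.47, 3.44 and 3.95 CPM on placebo. These groups overlapped too, with changes of 0.14, -0.05 and 0.10 log2 units in the pairs. The fitted change was 0.07 ± 0.23 (edgeR adjusted p = 0.999), with a 95% interval from 0.74-fold to 1.48-fold. The errors and intervals in both genotypes rest on a spread estimated over the pairs of both, not of each genotype alone. The response of Tert in Fancd2-/- cells minus that in wild-type cells was -0.11 ± 0.33 (edgeR adjusted p = 0.977). Without Fancd2-/- pair 3 it was -0.41 ± 0.30 and without Fancd2-/- pair 1 it was 0.11 ± 0.34, so that its sign rested on single pairs (edgeR adjusted p = 0.999 and 0.936). A rise of Tert by more than 1.48-fold thus lay outside the interval in wild-type KSL cells, and one by more than 1.38-fold outside that in Fancd2-/- KSL cells.

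None of the other 9 genes passed the test in either genotype. In Fancd2-/- KSL cells 0 of the 10 genes were called at an adjusted p under 0.05, as were 0 of the 13259 genes tested (0%). At an unadjusted p under 0.05 edgeR counted 0 of the 10 and 903 of all genes, and DESeq2 called 0 of the 10 and 0 of all genes. The fitted changes ran from -0.12 log2 units (Pot1a) to 0.14 (Terf1), with a median of -0.03 against -0.01 over all genes. That of Terf1 came mostly from pair 3, with -0.124, 0.088 and 0.445 in pairs 1 to 3. In wild-type KSL cells 0 of the 10 and 0 of the 13259 genes (0%) were called, with 0 of the 10 and 357 of all genes at an unadjusted p under 0.05, and DESeq2 called 0 of the 10 and 4 of all genes. There the changes ran from -0.09 (Terf2ip) to 0.16 (Dkc1), with a median of 0.05 against -0.01 over all genes. The widest of the 10 intervals in Fancd2-/- cells, those of Pot1b and Tert, the least expressed genes, reached from 0.67-fold to 1.42-fold at their ends.

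The single pairs show how the genes varied beneath these averages. In Fancd2-/- cells the change per gene and pair ran from -0.58 to 0.57 log2 units, with 4 of 30 values beyond 0.5 in size, and in wild-type cells from -0.26 to 0.36 (0 of 30). The 4 largest were Tert in pair 1 and Tert, Terf2 and Tinf2 in pair 3. Terf2, whose protein blocks fusion of chromosome ends, was at 51.0, 51.9 and 72.7 CPM in Fancd2-/- KSL cells on oxymetholone, against 60.0, 68.1 and 49.0 CPM on placebo. It was lower on oxymetholone in pairs 1 and 2 and higher in pair 3, so the groups overlapped. Tinf2 was at 26.1, 25.7 and 23.4 CPM on oxymetholone, against 20.4, 23.9 and 33.3 CPM on placebo, the reverse pattern. Over the pairs Terf2 changed by -0.02 ± 0.15 and Tinf2 by -0.03 ± 0.16 (edgeR adjusted p = 0.969 and 0.955). Without pair 3 Terf2 changed by -0.29 ± 0.11 and Tinf2 by 0.25 ± 0.13 (edgeR adjusted p = 1 for both). Rtel1 changed by -0.064, -0.114 and -0.016 log2 units in Fancd2-/- pairs 1 to 3, and its fitted change was -0.07 ± 0.11. Its interval for counting error included 0 in pairs 1 and 3. None of the 10 genes passed the test of a difference in response between the genotypes: edgeR called 0 of 10 and 0 of 13259 genes (0%), with 0 of the 10 and 457 of all genes at an unadjusted p under 0.05, and DESeq2 called 0 of the 10 and 1 of all genes.

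**Figure D2:**
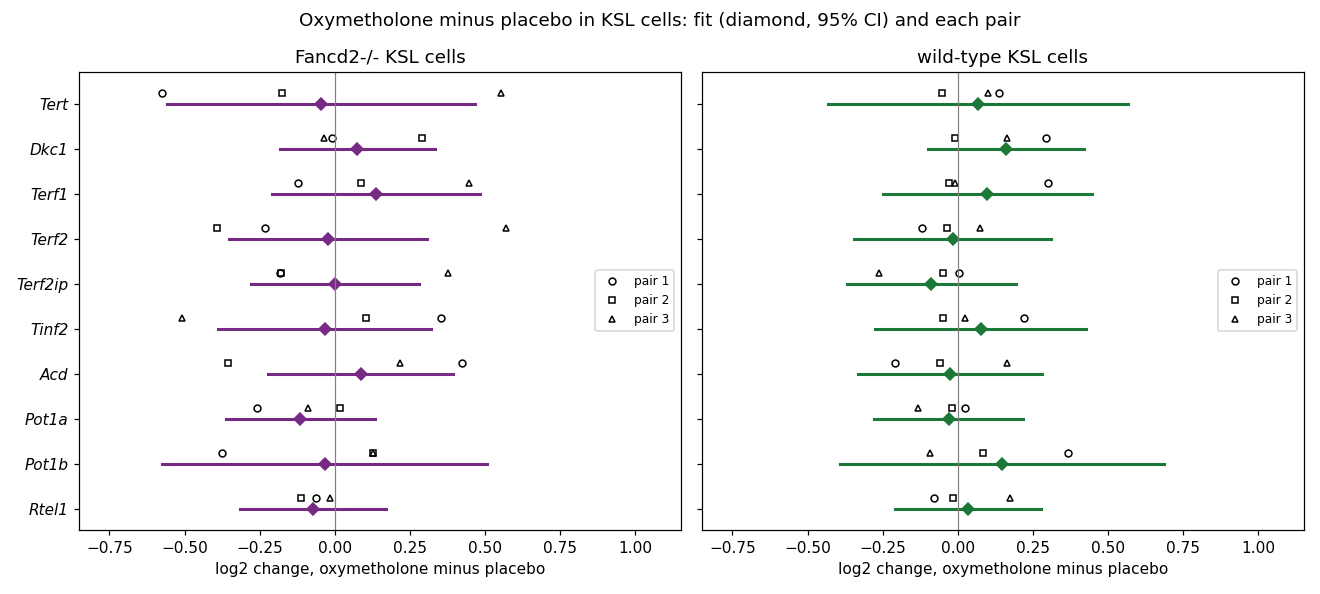
Change with oxymetholone in Fancd2-/- (left) and wild-type (right) KSL cells, as log2 of oxymetholone over placebo; diamonds and bars are the edgeR estimate and its 95% interval over 3 pairs, and open symbols are the single pairs. All intervals cross 0, and in Fancd2-/- cells pair 3 (triangles) lies opposite pairs 1 and 2 for Tert, Terf2, Terf2ip and Tinf2.

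In wild-type erythroblasts none of the genes tested passed the test for oxymetholone. Of the 10 genes 9 were abundant enough to test, and Tert was not. edgeR called 0 of the 9 and 0 of the 9694 genes tested (0%), with 0 of the 9 and 123 of all genes at an unadjusted p under 0.05, and DESeq2 called 0 of the 9 and 0 of all genes. The fitted changes with oxymetholone ran from -0.09 (Pot1b) to 0.06 (Pot1a), and all 9 intervals lay between 0.80-fold and 1.23-fold. Terf1 was at 107, 112 and 117 CPM on oxymetholone, against 110, 105 and 107 CPM on placebo, and the groups overlapped. Over the 6 erythroblast libraries the highest level exceeded the lowest by 1.05-fold for Terf2, by 1.11-fold for Terf1 and by 1.40-fold for Dkc1, the most variable.

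Whether loss of Fancd2 altered these genes was asked in KSL cells on each diet, and none of the 10 passed the test. On placebo edgeR called 0 of the 10, against 170 of 13259 genes tested (1.28%). At an unadjusted p under 0.05 there were 1 of the 10 and 2598 of all genes, and DESeq2 called 0 of the 10 and 809 of all genes. The count of all genes ranged from 19 to 236 with 1 library left out. Dkc1 was that gene. Its level was 182, 157 and 154 CPM in the Fancd2-/- placebo KSL libraries, against 130, 152 and 128 CPM in wild-type placebo KSL cells. The log2 difference was 0.29 ± 0.13 (edgeR adjusted p = 0.223). Without Fancd2-/- placebo replicate 3 it was 0.33 ± 0.13 (edgeR adjusted p = 0.257). On oxymetholone Dkc1 was at 181, 192 and 150 CPM in Fancd2-/- cells, against 159, 151 and 143 CPM in wild-type cells, where the groups overlapped (0.21 ± 0.13, edgeR adjusted p = 0.999). The 3′ end of Dkc1 shares 44 bases with Mpp1 on the opposite strand, and the strand of counting is not given in the sources used here.

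For Tert the difference between Fancd2-/- and wild-type KSL cells was within its error, at -0.10 ± 0.22 on placebo and -0.23 ± 0.22 on oxymetholone (edgeR adjusted p = 0.826 and 0.999). Without Fancd2-/- placebo replicate 3 the placebo estimate turned to 0.05 ± 0.22 (edgeR adjusted p = 0.936). On oxymetholone edgeR called 0 of the 10 and 17 of 13259 genes (0.128%), with 0 of the 10 and 738 of all genes at an unadjusted p under 0.05, and DESeq2 called 0 of the 10 and 86 of all genes. Terf1 had levels of 10.8, 10.8 and 6.27 CPM in the Fancd2-/- placebo KSL libraries, against 6.52, 8.42 and 9.24 CPM in wild-type placebo KSL cells. The low value is replicate 3, the library that stood apart, and the other Fancd2-/- libraries lay above all wild-type ones. The difference was 0.23 ± 0.21 with it and 0.45 ± 0.19 without it (edgeR adjusted p = 0.581 and 0.283). Tinf2 had levels of 20.4, 23.9 and 33.3 CPM in the Fancd2-/- placebo KSL libraries, against 19.7, 21.4 and 23.8 CPM in wild-type placebo KSL cells, so that the highest value was again replicate 3. Its difference was 0.29 ± 0.17 with that library and 0.05 ± 0.14 without it (edgeR adjusted p = 0.358 and 0.873). Mitosis genes moved with genotype on placebo: all 15 listed lay above 0 and 6 were called, with a summed level of 1371 to 1817 CPM in Fancd2-/- and 940 to 1204 CPM in wild-type placebo KSL cells. Erythroblast markers had a median of 1.91 (7 tested), neutrophil markers one of 0.91 (8 tested) and KSL markers one of -0.31 (8 tested) in the same comparison, with 0 called in each list. The summed erythroblast level was 195.4 CPM in Fancd2-/- placebo replicate 2, and 48.5 and 39.4 CPM in replicates 1 and 3. The part of these lists in the Dkc1 and Terf1 values was not tested. In bulk RNA, a different share of cells of a type and a different amount of RNA per cell cannot be told apart.

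**Figure D3:**
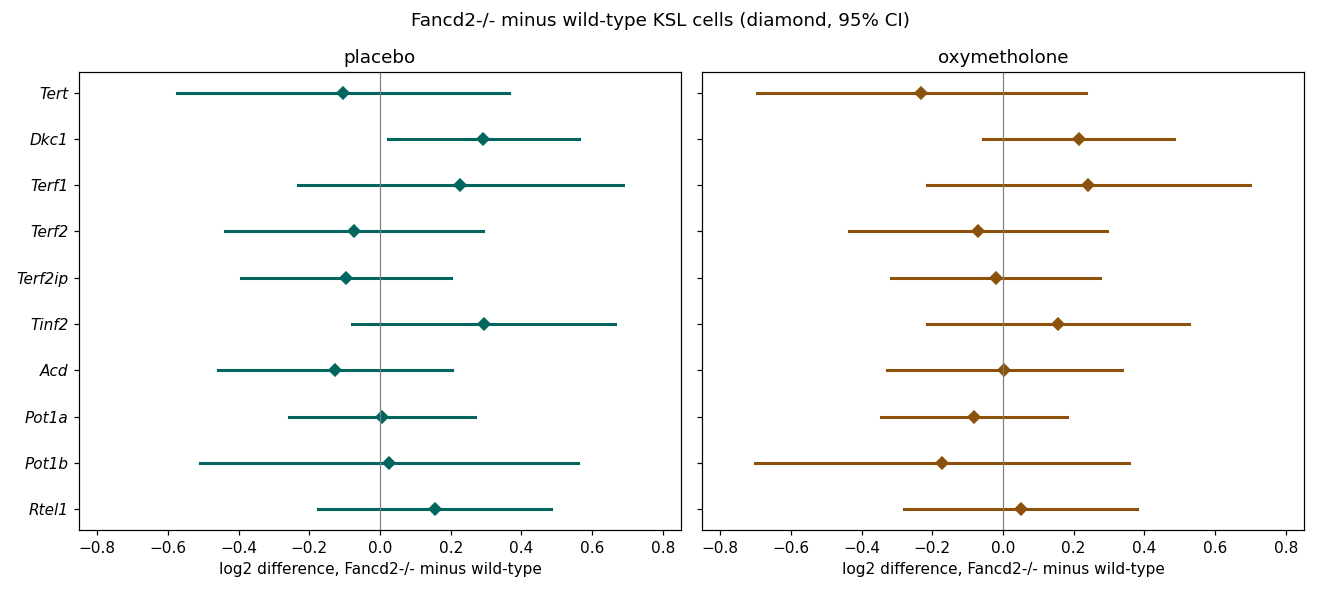
Difference between Fancd2-/- and wild-type KSL cells on placebo (left) and on oxymetholone (right), as log2 of Fancd2-/- over wild-type, with edgeR 95% intervals over 3 libraries a group. The interval of Dkc1 on placebo is the only one of the 20 that does not reach 0, and it did not pass after adjustment.

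Whole bone marrow, with 1 library per genotype, gave values without a replicate check. Tert had 35 counts (0.389 CPM) in Fancd2-/- marrow and 41 counts (0.486 CPM) in wild-type marrow. The ratio was 0.80, with a 95% interval for counting error of 0.50 to 1.29. Terf1 was at 14.5 CPM in Fancd2-/- and 16.4 CPM in wild-type marrow (ratio 0.88, 0.82 to 0.95). Pot1a was at 32.1 CPM in Fancd2-/- and 36.2 CPM in wild-type marrow (ratio 0.89, 0.84 to 0.93). Acd had a ratio of 0.963 (0.931 to 0.997) and Terf2ip one of 1.07 (1.01 to 1.14), while the intervals of Dkc1, Terf2, Tinf2, Pot1b and Rtel1 included 1. Among 13446 genes with at least 35 counts in these libraries, the quartiles of the same ratio were 0.945 and 1.06, with a median of 1.001. Tert, Terf1 and Pot1a thus lay below the lower quartile of genes and Terf2ip above the upper one, in a comparison of 2 libraries. The interval of Tert spanned both quartiles. Fancd2 itself had a ratio of 0.272. Both marrow libraries held less Tert than any KSL library.

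The large differences were between cell types. Among wild-type mice on placebo, edgeR called 9 of the 10 genes between erythroblasts and KSL cells, 6 higher and 3 lower in erythroblasts (7 and 1 under median-of-ratios factors, 4 and 5 per total count), against 91% of the 12538 genes tested, of which 37.2% were higher and 53.7% lower. With nearly every gene called, the count says little about these 10, and their sizes carry the description. The size of a difference depends on the scaling: the median gene lay at -0.67 log2 units under TMM, -0.51 under median-of-ratios factors and -2.08 per total count. The share of called genes that were higher was 40.9%, 43.1% and 20.5% under these scalings in turn. Directions below hold under all 3 unless stated.

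Tert was not detected in erythroblasts. It had 0 counts in each of the 6 libraries, among 117.7 M counted reads in all, which allows a level of up to 0.0479 CPM over the 6 (3 counts), a limit for counting error only. On placebo this put Tert at least 37.0-fold lower in erythroblasts than in KSL cells (group floor of 3 counts over 3 libraries), and on oxymetholone at least 40.4-fold lower. Per total count the bounds were 92.8-fold and 99.6-fold. Between these cell types Tert passed the low-count filter through its KSL counts alone. Its call as lower in erythroblasts therefore adds nothing to these bounds. KSL marker genes fell with Tert in the same libraries, with summed levels of 1.08 to 1.98 CPM in placebo erythroblasts and 2700 to 3001 CPM in wild-type placebo KSL cells.

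Shelterin's double-strand binder Terf1 and the single-strand binder Pot1b were the genes raised most in erythroblasts. Terf1 was at 110, 105 and 107 CPM in placebo erythroblasts, against 6.52, 8.42 and 9.24 CPM in placebo wild-type KSL cells. The groups were far apart, and the difference was 3.76 ± 0.14 log2 units, or 13.6-fold (edgeR adjusted p = 7.32e-13). Pot1b was at 25.4, 26.6 and 27.9 CPM in erythroblasts, against 2.28, 2.33 and 1.85 CPM in KSL cells. This was 3.60 ± 0.17, or 12.1-fold (edgeR adjusted p = 1.28e-11), again without overlap. About 13.0% of the Pot1b transcript and 3.2% of the Terf1 transcript have near-identical copies elsewhere in the genome, and how the authors counted reads with several matches is not given in the sources used here. Per total count Terf1 was 2.35 and Pot1b 2.20 log2 units higher.

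Tinf2, the bridge of the complex, was at 113, 121 and 106 CPM in placebo erythroblasts, against 19.7, 21.4 and 23.8 CPM in KSL cells, a difference of 2.41 ± 0.12 (5.33-fold). Pot1a was at 129, 144 and 143 CPM in erythroblasts, against 46.4, 41.6 and 47.1 CPM in KSL cells (1.64 ± 0.10, or 3.13-fold). Rtel1 was at 109, 127 and 115 CPM in erythroblasts, against 35.1, 42.3 and 33.1 CPM in KSL cells (1.68 ± 0.13, or 3.20-fold). All 3 were separated from KSL cells in every library. Per total count, Tinf2 kept 0.997, Rtel1 0.27 and Pot1a 0.23 log2 units, and Pot1a no longer passed (edgeR adjusted p = 0.0661). Terf2 was at 111, 106 and 107 CPM in erythroblasts, against 59.4, 74.2 and 55.3 CPM in KSL cells, higher by 0.80 ± 0.13 under TMM but lower by 0.62 per total count.

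Acd, Dkc1 and Terf2ip differed least under TMM and median-of-ratios factors, though not per total count, where Dkc1 was 1.76 and Terf2ip 1.75 log2 units lower in erythroblasts. Acd, which recruits telomerase to the telomere, was at 62.2, 71.0 and 72.4 CPM in placebo erythroblasts, against 63.3, 66.3 and 50.1 CPM in KSL cells, overlapping (0.21 ± 0.13, edgeR adjusted p = 0.143). It was higher by 0.36 under median-of-ratios factors, where it passed, and lower by 1.21 per total count. Its end shares 7 bases with Rltpr on the opposite strand. Dkc1 was at 96.9, 112 and 110 CPM in erythroblasts, against 130, 152 and 128 CPM in KSL cells (-0.34 ± 0.11, edgeR adjusted p = 0.0104). Terf2ip was at 31.3, 31.7 and 28.9 CPM in erythroblasts, against 37.3, 37.4 and 43.2 CPM in KSL cells (-0.33 ± 0.12, edgeR adjusted p = 0.0162). Both were lower than in KSL cells in every library, but at -0.19 each they did not pass under median-of-ratios factors (edgeR adjusted p = 0.0989 for Dkc1 and 0.156 for Terf2ip). Dkc1 also missed the threshold without wild-type placebo KSL replicate 2 (edgeR adjusted p = 0.0517), and Terf2ip without placebo erythroblast replicate 3 (edgeR adjusted p = 0.0625). Mpp1, which overlaps the end of Dkc1, was 3.76 log2 units higher in erythroblasts, and its part in the Dkc1 counts was not tested. Near-identical copies elsewhere in the genome cover 10.2% of the Terf2ip transcript and 5.7% of the Dkc1 transcript. The part of reads from such copies was not tested either. Set against the median gene, Dkc1 stood 0.32, Terf2ip 0.33 and Acd 0.87 log2 units above it under TMM.

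**Figure D4:**
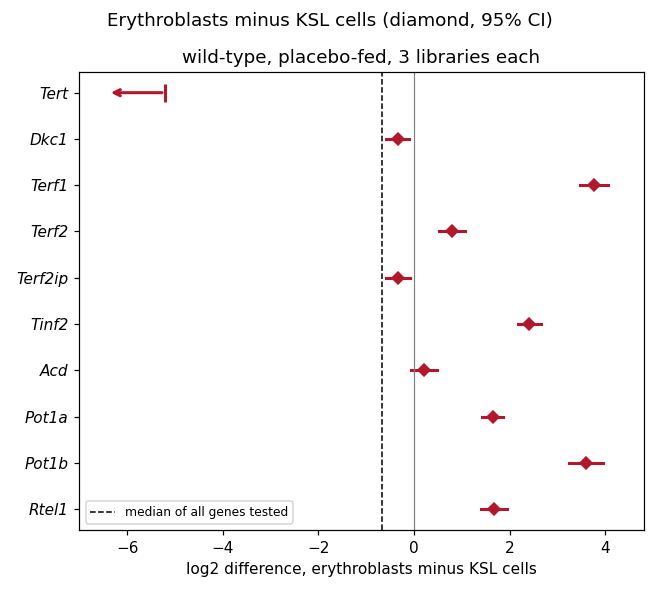
Difference between erythroblasts and KSL cells of wild-type placebo-fed mice, as log2 of erythroblasts over KSL cells (TMM) with edgeR 95% intervals, 3 libraries each; the dashed line is the median of all genes tested (-0.67), and the arrow for Tert starts at its bound (at least 37.0-fold lower). Terf1 and Pot1b lie farthest to the right; per total count Terf2 and Acd lie on the other side of 0.

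The order of the messages was therefore different in the 2 cell types. Per kilobase, placebo erythroblasts had 65.7 ± 1.32 CPM per kb of Terf1 (SD, n = 3), 65.2 ± 4.40 of Tinf2, 48.1 ± 3.90 of Acd, 44.0 ± 2.70 of Pot1a, 40.7 ± 0.936 of Terf2, 38.0 ± 2.97 of Dkc1, 27.2 ± 2.06 of Rtel1, 8.51 ± 0.430 of Terf2ip and 7.61 ± 0.365 of Pot1b, with Tert at 0. The SDs of Terf1 and Tinf2 met at the top, as did those of each neighbour in the run of Acd, Pot1a, Terf2 and Dkc1. Acd lay above Pot1a within every library, while the order of the other neighbours named here changed between libraries. Terf1 lay below all but Tert and Pot1b in KSL cells, and with Tinf2 it lay highest in erythroblasts.

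Ratios within a library do not depend on scaling between libraries, and they separated the cell types. The ratio of Pot1b to Pot1a, per kilobase, was 0.165 ± 0.0115 in 6 wild-type erythroblast libraries (SD; 0.150 to 0.177) and 0.0461 ± 0.00895 in 6 wild-type KSL libraries (0.0353 to 0.0561). By the means of the log2 ratios, the erythroblast ratio was 3.63-fold higher, with no overlap. The ratio of Terf1 to Terf2, the sister proteins on the double strand, was 1.65 ± 0.0673 in erythroblasts (1.57 to 1.74) and 0.220 ± 0.0416 in wild-type KSL cells (0.180 to 0.273). That was 7.57-fold higher on the same measure, again with no overlap. These values mix the diets, and the 6 KSL libraries are 3 sorting pairs. On placebo alone, 3 libraries against 3, the ratios were 4.04-fold and 7.75-fold higher. Pot1b and Terf1 had already differed more than Pot1a and Terf2 in these placebo libraries. The ratios restate those differences, and no test is given for them. The Pot1a and Pot1b transcripts share no run of 51 bases, the length of a read, and are 77.7% identical over 2184 aligned bases, so reads that match perfectly could be told apart.

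**Figure D5:**
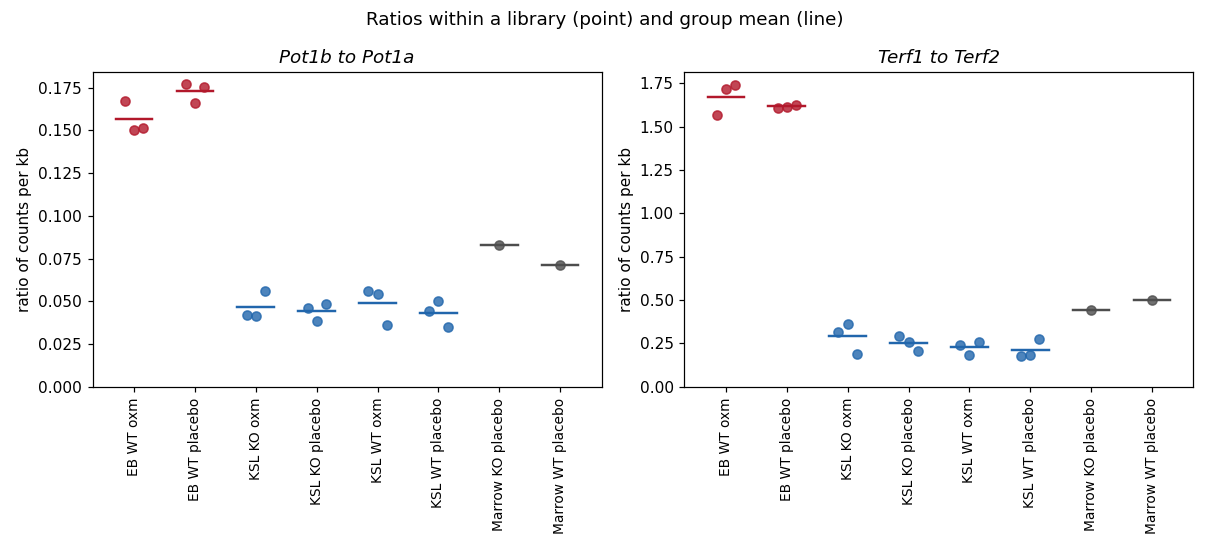
Ratio of Pot1b to Pot1a (left) and of Terf1 to Terf2 (right) in every library, as counts per kilobase of transcript on linear axes from 0; points are libraries and lines are group means, with erythroblasts (EB, red) left of KSL cells (blue) and whole marrow (grey). Erythroblasts lie at 0.150 to 0.177 and 1.57 to 1.74, above all wild-type KSL libraries.

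The rest of the telomere pathway was followed in lists that do not hold the 10 genes. In placebo erythroblasts against placebo wild-type KSL cells, edgeR called 91% of all genes, 37.2% higher and 53.7% lower. With so many called, the counts in each list are given beside these shares as a description. Of 10 genes for the telomerase ribonucleoprotein and its assembly, 9 were lower and 1 higher in placebo erythroblasts than in placebo wild-type KSL cells, with a median of -2.15 log2 units against -0.67 over all genes, and the same split under all 3 scalings. Among those lower were Gar1 (-2.84 ± 0.16), Nop10 (-2.28) and Nhp2 (-2.07), the partners of dyskerin on H/ACA RNAs, and Naf1 (-3.28), which loads them. Wrap53, which brings telomerase to Cajal bodies, was the one higher (1.72). Of 12 genes for the CST complex and telomere replication, 10 were higher and 2 lower, with a median of 2.46, and per total count 9 were higher and 3 lower. Blm (4.07) and Wrn (3.69), helicases that unwind telomere ends, and Fen1 (3.72), a flap nuclease, were higher, as were the 15 mitosis genes in the same libraries (a median of 4.10). The CST subunit genes listed as 2310004N24Rik (Ten1, -1.51) and Obfc1 (Stn1, -0.36) were lower, and Obfc1 was not called under median-of-ratios factors.

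Of 12 genes for end processing and the damage response, 5 were higher and 5 lower, against 3 higher and 9 lower per total count, with a median of -0.16. The shares of all genes, 37.2% higher and 53.7% lower, were near the TMM counts. Dclre1b, the Apollo nuclease that TRF2 recruits, was 2.93 log2 units higher in erythroblasts, and Xrcc5, the Ku80 subunit, 2.72 lower. Of 12 regulators of telomerase and telomere chromatin, 8 were higher and 3 lower, against 5 higher and 7 lower per total count. Tnks, a tankyrase known in human cells to strip TRF1 from telomeres, was 2.99 log2 units higher in erythroblasts. Fbxo4, a ubiquitin ligase subunit also known in human cells to target TRF1, was lower by 4.69. It had 26 counts in all (a mean of 0.843 CPM) in placebo erythroblasts, against 22.3 CPM in placebo wild-type KSL cells. Its size thus rests on few erythroblast counts. In the other comparisons, which are oxymetholone in each genotype, the interaction, genotype on each diet and oxymetholone in erythroblasts, 0 of the 51 to 56 listed genes tested were called. Nearest were Mre11a (0.44, edgeR adjusted p = 0.0885) and Prim1 (0.47, edgeR adjusted p = 0.0985) in Fancd2-/- against wild-type KSL cells on placebo.

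Of 9 genes known to act on Tert transcription that could be tested, 5 were higher and 4 lower in placebo erythroblasts than in placebo wild-type KSL cells, against 4 higher and 5 lower per total count. Among all genes tested, 37.2% were higher and 53.7% lower under TMM. The activators did not move as one. Myc, which activates Tert with MAX at the E-box, was at 9.94 to 26.6 CPM in the 6 erythroblast libraries and 323 to 533 CPM in the 12 KSL libraries. Mxd1, which competes for MAX and represses, was at 1124 to 1398 CPM in erythroblasts and 15.6 to 29.0 CPM in KSL cells. Sp1, which binds the GC boxes, averaged 684 ± 48.6 CPM in placebo erythroblasts and 200.2 ± 13.5 CPM in placebo wild-type KSL cells (SD, n = 3 each), 1.79 log2 units higher. E2f1 was 3.34 and Mxi1, a relative of Mxd1, 3.30 log2 units higher in erythroblasts, and Max was 0.68 higher under TMM but 0.74 lower per total count. Mycn had 0 counts in all 6 erythroblast libraries and was at 108 to 177 CPM in KSL cells. Esr1 (oestrogen receptor alpha) had at most 1 count in an erythroblast library and was at 11.9 to 28.7 CPM in KSL cells. Mycn and Esr1, counted among those lower, thus passed the low-count filter through their KSL counts alone. Cyp19a1, which encodes aromatase, had 0 counts in all 20 libraries, which in KSL cells allows a level of up to 0.00382 CPM. None of the 10 transcription genes tested was called for oxymetholone in either genotype of KSL cells.

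Over the 8 group means, the genes whose pattern came closest to that of Tert, by the root mean square difference of centred log2 levels (CPM plus 0.5) among 12980 genes, were Vash2 (0.081), Zfp108 (0.088) and Spaca1 (0.089), each at about 3 to 5 CPM in KSL cells and near 0 in erythroblasts. Those closest to Terf1, the gene of widest range on this scale (3.72 log2 units, and 3.10 for Tert), were H3f3a (0.060), Kpna1 (0.079) and Sp3 (0.082). These points share libraries and depth, and the likeness is a description only.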

How the data were processed

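Per the submitters' processing notes and the design text, reads of 51 bases were mapped to mm9 by Bowtie, and edgeR served for the authors' own analysis. No version, strand setting or rule for multiply matching reads is given in the sources used here. The deposited counts per RefSeq transcript, unnormalised by the authors, were used, with the row of the largest total per symbol. A KSL library in the design text's pairs matches no label, and the sample of nearest name (Fancd2-/- placebo, replicate 1) was used for it. The deposited score matrix (rescaled, rounded) was not used.

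Tests used edgeR 4.0.16 (TMM, filterByExpr by group, robust quasi-likelihood) in R 4.3.3, with Benjamini-Hochberg adjustment over all genes tested. Oxymetholone in KSL cells was fitted with the sorting pair as a block. Deviations from group means correlated within pairs at -0.036 (Fancd2-/- pair 2) to 0.397. Other comparisons used group means. p-values measure the spread between pools, or between mice for erythroblasts. Copies and paralogs were searched with blastn 2.17.0. Alternatives were DESeq2 1.42.0, other scalings, no filter, summed rows and leaving out each library. All 10 genes were named, and patterns took the 3 closest genes for Tert and for the gene of widest range. The 10 genes and the lists were chosen with earlier results of these data known. A listed gene is not reported here. Scripts were tested on simulated counts.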

Additional observations from a re-analysis of the deposited data

How the results depend on the processing

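The number of the 10 genes called in each comparison was 0 under every alternative run, except between erythroblasts and KSL cells, where it was 8 or 9 (8 with median-of-ratios factors and with DESeq2; 8 to 9 when 1 library was left out). Fitting oxymetholone without the replicate block called 0 of the 10 in each genotype and in the interaction, and changed no other call. Per total count Terf2 (-0.618) and Acd (-1.205) changed direction between erythroblasts and KSL cells. Over alternatives, the oxymetholone change of Tert ran from -0.33 to 0.19 log2 units in Fancd2-/- and from 0.02 to 0.15 in wild-type KSL cells (lowest adjusted p 0.757 and 0.955), the Tert interaction from -0.41 to 0.11, the genotype difference of Tert on placebo from -0.20 to 0.05, and the genotype difference of Dkc1 on placebo from 0.22 to 0.39 (adjusted p 0.134 to 0.39). Counts over all genes moved more: for genotype on placebo 170 became 809 with DESeq2 and 19 to 236 with 1 library left out, and for genotype on oxymetholone 17 became 86 with DESeq2 and 2 to 8 with 1 library left out. For oxymetholone in Fancd2-/- KSL cells the count of all genes was 16 without the low-count filter and 12 without pair 1 or pair 2. Low counts limit Tert and Pot1b most, with 53 and 29 counts in their shallowest KSL libraries.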
